A study of Homo sapiens with 14 samples.

Results

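FOXA1 was lowered with a hairpin in 22Rv1 cells, and the transcripts of these cells were compared with those of cells that carried a control hairpin. The comparison used the 2 shFOXA1 and the 2 shCtrl libraries, 4 of the 14 in the series, chosen by their labelled group. 22Rv1 is an established line of human prostate cancer cells. Per the labels, the shCtrl cells had the genotype WT, the shFOXA1 cells were WT with FOXA1 knockdown, and both received lentivirus. The hairpin sequence, the number of hairpins and the time from infection to harvest are not given in the labels, which limits the cells as a model of FOXA1 loss. The titles of the shCtrl libraries read 22Rv2 where their other labels read 22Rv1, and they were taken as 22Rv1. The only other libraries used were 2 dTAG libraries at 0 h and 2 at 24 h from a line with a degradable FOXA1 fusion, and they served to show where the hairpin cells differed.

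FOXA1 is a pioneer factor, a transcription factor of the forkhead family that can bind its sites in closed chromatin and open them for other factors. In prostate epithelium it marks enhancers at which other factors then bind, and with HOXB13 and GATA2 it maintains luminal identity. The study's title places it with cohesin and its loader NIPBL in the folding of the genome. The question addressed here was which genes changed when FOXA1 mRNA was reduced but not removed.

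The 4 libraries held 34.09 to 36.53 M counts over 57904 features, of which 19128 passed the low-count filter. The shFOXA1 libraries stood further apart than the shCtrl libraries. Among 12066 genes with a mean of at least 5 CPM, counts scaled to library size, in a group, 49 differed at least 2-fold between the shFOXA1 libraries and 2 between the shCtrl libraries. At 1.5-fold these numbers were 236 and 20. Counts from mitochondrial genes took 8.33% and 8.11% of the shCtrl libraries and 9.32% and 9.68% of the shFOXA1 libraries. Their part in the results was not tested. The labels do not say that replicates were separate cultures, so a p-value here reflects no more than library-to-library spread, which may be technical. A change in the bulk RNA cannot tell fewer cells of a type from less RNA per cell.

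**Figure D1:**
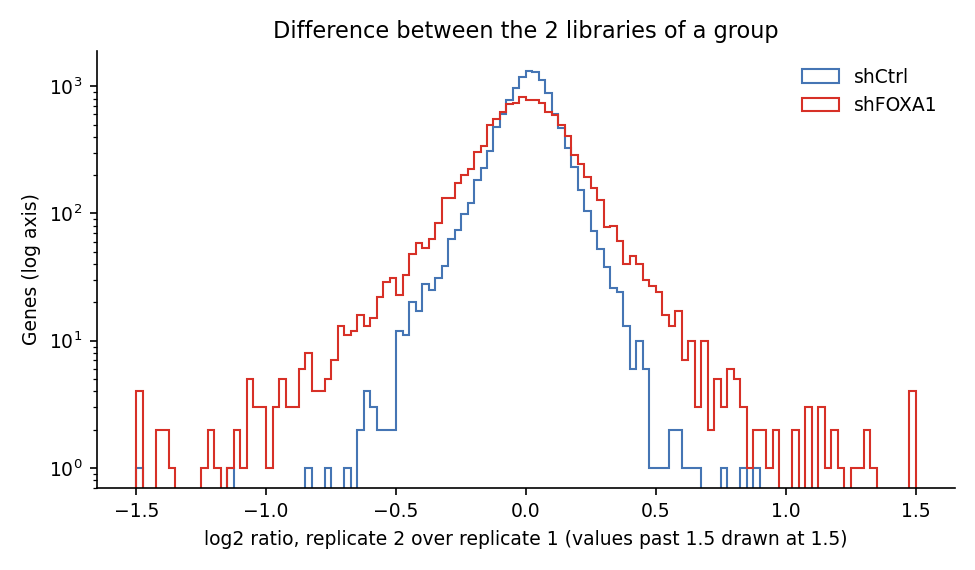
Distribution over genes of the log2 ratio between replicate 2 and replicate 1 (x axis) as the number of genes per bin (y axis, log scale), for the shCtrl and the shFOXA1 pair, for genes with a group mean of at least 5 CPM, after adding 0.1 CPM. The shFOXA1 curve has wider tails: 49 genes pass 2-fold there against 2 in shCtrl, and ratios past 1.5 are drawn at 1.5.

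Calls rest on edgeR's quasi-likelihood test with a threshold of 0.05 on the p adjusted by the Benjamini-Hochberg method across the whole table, and every adjusted p below comes from it. Log2 fold changes are shFOXA1 over shCtrl with their standard error, and levels are CPM, with n = 2 libraries in each group. The test called 23.6% of genes, with 11.3% higher and 12.3% lower in shFOXA1. Most of the called changes were small: 3050 were under 1.5-fold, 876 from 1.5-fold to 2-fold, 462 from 2-fold to 4-fold and 118 at least 4-fold, so 3.03% of genes tested were called at 2-fold or more. A call that also held in each of the 4 fits that leave out 1 library is named a call in all fits below, and 7.68% of genes had one, 3.77% higher and 3.91% lower. In each of these fits 1 group has a single library, which is assumed to vary like the rest, so the spread comes from the group that keeps both. The chi-square per degree of freedom between replicates was 4.04 in shCtrl and 11.8 in shFOXA1. A call lost without a shCtrl library was therefore tested against the wider spread, and fits without a shFOXA1 library used the narrower one. Calls named below held in all fits unless the loss is given. The total of 4506 calls became 2421 without shCtrl replicate 1, 1713 without shCtrl replicate 2, 6793 without shFOXA1 replicate 1 and 5485 without shFOXA1 replicate 2, and the number in all fits stands beside the counts of lists. Upper quartile scaling put 56.7% of calls higher and library totals 41.7%, against 47.8% here. Protein-coding genes were called more often lower (2222) than higher (1795) of 13868 tested. Transcripts annotated as lincRNA went the other way, with 89 higher and 21 lower of 1023, and so did antisense transcripts (84 higher, 27 lower of 1458) and pseudogenes (90 higher, 33 lower of 1389). The strand setting of the counting is not given in the sources used here, so reads of an antisense transcript and its partner gene cannot be told apart.

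The targeted gene was lower in both hairpin libraries. All gene lists below were chosen with earlier results of these data known, so a list's count beside the background describes it and is no independent evidence. FOXA1 stood at 402 and 435 CPM in shCtrl and 299 and 305 CPM in shFOXA1. The pairs did not overlap and the log2 fold change was -0.47 ± 0.062 (adjusted p = 0.000275). The shFOXA1 mean was 0.721 times the shCtrl mean, so most FOXA1 mRNA remained. Of 43 forkhead genes listed, 24 passed the filter. Of these 3 were called higher and 4 lower, FOXA1 among them (0 and 3 in all fits), with a median of -0.08 on the log2 scale against 0.01 over all genes tested. The shares of the forkhead list, 12.5% higher and 16.7% lower, were near the 11.3% and 12.3% of all genes tested. FOXM1, which drives genes of late cell cycle, stood at 218 and 227 CPM in shCtrl and 137 and 122 CPM in shFOXA1 and fell by 0.78 ± 0.069 on the log2 scale. FOXP1, a transcriptional repressor with roles in lymphocyte and heart development, fell from 25.5 and 24.8 CPM in shCtrl to 15.9 and 16.03 CPM in shFOXA1, which was -0.66 ± 0.093 (adjusted p = 0.000416) on the log2 scale. FOXC1, a regulator of mesenchymal and eye development, had -0.97 ± 0.28 (adjusted p = 0.0247), and the call was lost without shCtrl replicate 1 (adjusted p = 0.157), shCtrl replicate 2 (0.0666) or without shFOXA1 replicate 1 (0.0634). The close relative FOXA2 did not pass the filter, and FOXA3, at 0.867 and 0.381 CPM in shCtrl and 0.836 and 0.833 CPM in shFOXA1, was not called (adjusted p = 0.513).

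The lineage factors that act beside FOXA1 moved both ways, 31.6% called higher and 26.3% lower, against 11.3% and 12.3% of all genes tested. Of 19 tested, 6 were called higher and 5 lower, with a median of 0.28, and 1 in each direction held in all fits. HOXB13, the posterior homeobox factor of prostate, had a log2 fold change of 0.36 ± 0.075 (adjusted p = 0.00525), and the call was lost without shCtrl replicate 1 (adjusted p = 0.0509). GRHL1, a grainyhead factor of epithelia, fell from 22.5 and 22.2 CPM in shCtrl to 13.8 and 11.9 CPM in shFOXA1, with a log2 fold change of -0.80 ± 0.11 (adjusted p = 0.000288). GATA3 and ELF5, factors of luminal mammary epithelium, rose from low levels, GATA3 from 0.375 and 0.381 CPM in shCtrl to 0.922 and 1.13 CPM in shFOXA1 and ELF5 from 0.578 and 0.4896 CPM in shCtrl to 1.07 and 1.49 CPM in shFOXA1. Their log2 fold changes were 1.43 ± 0.39 and 1.25 ± 0.36. For GATA3 the call was lost without shCtrl replicate 1 (adjusted p = 0.0873), shCtrl replicate 2 (0.104) or without shFOXA1 replicate 2 (0.0649), and for ELF5 the call was lost without shCtrl replicate 1 (adjusted p = 0.062), shCtrl replicate 2 (0.142) or without shFOXA1 replicate 2 (0.111).

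The labelled cell type was checked against defining markers. Luminal markers had 38.5% called higher and 7.69% lower, against 11.3% and 12.3% of all genes tested. All 13 luminal prostate markers passed the filter, 5 were called higher and 1 lower (2 and 1 in all fits), and their summed level was 3985 and 3892 CPM in shCtrl and 4695 and 4635 CPM in shFOXA1. EPCAM, an epithelial adhesion molecule, was the lower gene, with 49.2 and 56.1 CPM in shCtrl and 37.01 and 36.3 CPM in shFOXA1. KRT18, FOLH1 (the prostate-specific membrane antigen), STEAP2, KLK2, SPDEF, CDH1 and TMPRSS2 were not called. TMPRSS2, an androgen-responsive protease, stood at 16.1 and 14.4 CPM in shCtrl and 51.2 and 89.4 CPM in shFOXA1. Its shFOXA1 libraries were both higher but far apart, and its adjusted p was 0.066, while DESeq2 gave an adjusted p of 9.26e-07. Among fibroblast markers 5 of 10 passed the filter and DCN (decorin) was called higher, from 6 and 10 counts to 24 and 22 counts, but the call was lost without shCtrl replicate 1 (adjusted p = 0.226), shCtrl replicate 2 (0.108), shFOXA1 replicate 1 (0.0867) or without shFOXA1 replicate 2 (0.0674). The list had a summed level of 18.7 to 20.5 CPM in shCtrl and 24.04 to 31.2 CPM in shFOXA1. FAP and POSTN had 0 counts. The collagen gene COL3A1 had 50 and 65 counts in shCtrl and 202 and 473 counts in shFOXA1 and was not called (adjusted p = 0.0683), while DESeq2 gave an adjusted p of 0.000558. Of 9 endothelial markers matched, 2 passed (2.26 to 2.83 CPM in shCtrl, 1.28 to 2.16 CPM in shFOXA1), with CDH5 and KDR at 0 counts. Of 12 leukocyte markers 3 passed (1.496 to 1.62 and 1.81 to 2.42 CPM), with CD3E, CD3D and TYROBP at 0 counts. No endothelial or leukocyte marker was called. The part of other cells in the results was not tested.

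Promoters were searched for the forkhead core TGTTTAC, on both strands, in the 250 bases before the RefSeq transcription start (GRCh38.p14) of 12276 tested genes that matched the promoter table by symbol. It was found in 1.98% of them, in 1.53% of 1501 genes called higher and in 2.36% of 1865 called lower. Among genes called in all fits and changed at least 2-fold, 1 of 103 higher and 3 of 101 lower had it. The 3 were DNAJC12, CPN1 and SMIM28, named for their match, and the largest fall was that of SMIM28, a small membrane protein. It is shown because it joins a match with a large change. The window is chr6:138377667-138377773 on the plus strand, with the match in capitals, and the match begins at position -188 from the start.
SMIM28: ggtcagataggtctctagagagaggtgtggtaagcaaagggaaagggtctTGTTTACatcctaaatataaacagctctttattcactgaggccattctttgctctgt
SMIM28 stood at 6.18 and 6.17 CPM in shCtrl and 1.33 and 0.506 CPM in shFOXA1, a log2 fold change of -2.74 ± 0.31 (adjusted p = 0.000339). A match is only a run of letters, and a window this short leaves out the distant enhancers where FOXA1 is known to act.

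The largest falls were of genes with varied roles. HABP2, a plasma serine protease that binds hyaluronan, had 89 counts over the shCtrl libraries and 1 count over the shFOXA1 libraries, a ratio of 85.2 with an exact 95% interval of 14.9 to 3401 that covers counting error only. ADRA2A, the alpha-2A adrenergic receptor that inhibits adenylyl cyclase, stood at 15.1 and 15.6 CPM in shCtrl and 4.09 and 2.08 CPM in shFOXA1. Its log2 fold change was -2.31 ± 0.26 (adjusted p = 0.000973). PDGFA, a growth factor for mesenchymal cells, fell from 1.13 and 1.44 CPM in shCtrl to 0.259 and 0.268 CPM in shFOXA1, a log2 fold change of -2.27 ± 0.40. FST, which binds and blocks activin, fell from 1.44 and 1.28 CPM in shCtrl to 0.346 and 0.238 CPM in shFOXA1, a log2 fold change of -2.20 ± 0.39. These 3 genes were low in both hairpin libraries, with no overlap. SCIN, an actin-severing protein, fell by 1.93 ± 0.17 on the log2 scale, and SERPINB8, a serine protease inhibitor, fell by 2.34 ± 0.26. DDIT4L, an inhibitor of mTOR signalling, stood at 91.6 and 97.3 CPM in shCtrl and 28.2 and 22.5 CPM in shFOXA1. It fell by 1.90 ± 0.098, while its relative DDIT4 rose by 0.90 ± 0.12.

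Among the largest rises, IP6K3, an inositol hexakisphosphate kinase, had 3 counts over the shCtrl libraries and 81 over the shFOXA1 libraries, a ratio of 28.2 (exact 95% interval 9.32 to 139.7). The long noncoding RNA LINC02266 had 3 and 86 counts, a ratio of 30.0 (9.91 to 148.1). GDNF, the neurotrophic factor that signals through RET, stood at 7.31 and 6.66 CPM in shCtrl and 21.9 and 29.95 CPM in shFOXA1. Its log2 fold change was 1.89 ± 0.15 (adjusted p = 4.42e-05). ESPN, a protein that bundles actin, stood at 4.91 and 3.62 CPM in shCtrl and 15.4 and 18.3 CPM in shFOXA1, and NCMAP, a membrane protein of myelin, at 1.39 and 1.31 CPM in shCtrl and 5.62 and 9.102 CPM in shFOXA1. Both were higher in each hairpin library than in any control. INMT, a methyltransferase of indoles, and CYP4F22, a fatty acid hydroxylase of skin, rose by 2.70 ± 0.19 and 4.06 ± 0.41 on the log2 scale. GAS1, a membrane protein of growth arrest and hedgehog signalling, rose by 1.89 ± 0.40. G0S2, an inhibitor of triglyceride breakdown, rose from 0.549 and 0.544 CPM in shCtrl to 1.297 and 2.89 CPM in shFOXA1, with the shFOXA1 libraries far from each other.

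**Figure D2:**
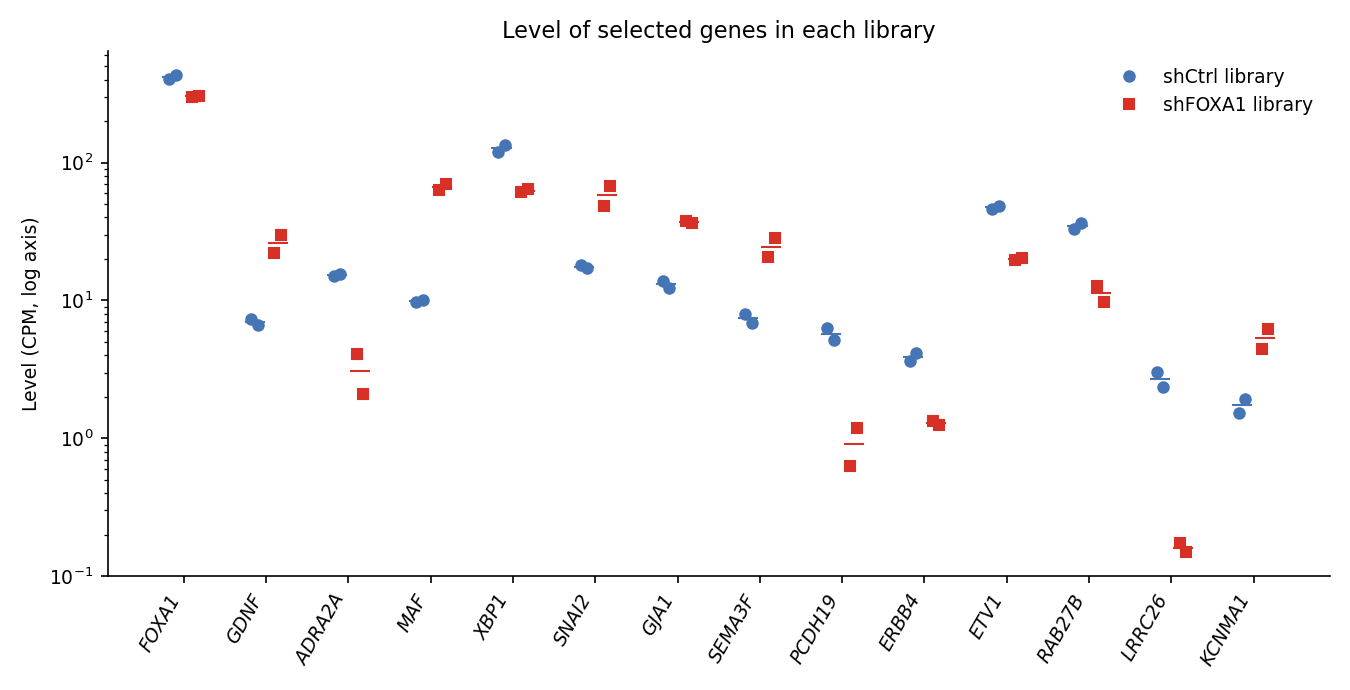
Level in CPM (y axis, log scale) of 14 described genes (x axis) in each shCtrl library (blue circles) and each shFOXA1 library (red squares), with the group mean as a short line. The groups do not overlap for any gene drawn, and the drop runs from the modest one of FOXA1 to that of LRRC26, from 3.00 and 2.37 CPM to 0.173 and 0.149 CPM.

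Kallikreins and FKBP5 are textbook targets of steroid hormones. Of 8 kallikrein genes tested 2 were called, both higher, 1 in all fits. The share called in either direction, 25%, was near the 23.6% of all genes tested. KLK4 stood at 309 and 279 CPM in shCtrl and 497 and 459 CPM in shFOXA1, with a log2 fold change of 0.70 ± 0.069 (adjusted p = 4.42e-05), and KLK3, which encodes prostate-specific antigen, at 11.1 and 9.44 CPM in shCtrl and 21.2 and 14.04 CPM in shFOXA1 (0.78 ± 0.20). For KLK3 the call was lost without shCtrl replicate 2 (adjusted p = 0.162). Of 19 genes listed for their response to glucocorticoids, 9 were called higher and 1 lower, 6 higher in all fits, with a median of 0.48. These were 47.4% higher and 5.26% lower, against 11.3% and 12.3% of all genes tested. SNAI2, a zinc-finger repressor of epithelial genes, stood at 18.02 and 17.1 CPM in shCtrl and 48.3 and 68.1 CPM in shFOXA1, which gave 1.73 ± 0.17 (adjusted p = 0.00163) on the log2 scale. FKBP5, a co-chaperone that restrains steroid receptors, had 311 and 302 CPM in shCtrl and 740.5 and 941 CPM in shFOXA1. ZBTB16, a zinc-finger repressor induced by glucocorticoids, rose by 1.22 ± 0.18, and the call was lost without shCtrl replicate 2 (adjusted p = 0.0796). DDIT4, an inhibitor of mTOR, rose from 12.4 and 11.9 CPM in shCtrl to 24.9 and 20.3 CPM in shFOXA1. In each of these 4 genes both hairpin libraries were above both controls.

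Enzymes of steroid metabolism moved both ways, with 3 called higher and 4 lower (0 and 1 in all fits) of 24 and a median of -0.07. The shares of this list, 12.5% higher and 16.7% lower, were near the 11.3% and 12.3% of all genes tested. RDH11, a retinal and steroid reductase, fell from 271 and 259 CPM in shCtrl to 186 and 149 CPM in shFOXA1, which was -0.66 ± 0.096 (adjusted p = 0.00185) on the log2 scale. AKR1C1 and AKR1C2, ketosteroid reductases of near-identical sequence whose reads may be split between them, rose by 0.59 ± 0.14 and 0.47 ± 0.11. For AKR1C1 the call was lost without shCtrl replicate 1 (adjusted p = 0.0924) or shCtrl replicate 2 (0.0784), and for AKR1C2 the call was lost without shCtrl replicate 2 (adjusted p = 0.139). HSD11B2, which inactivates cortisol, rose by 0.46 ± 0.14, and the call was lost without shCtrl replicate 1 (adjusted p = 0.269) or shCtrl replicate 2 (0.135). Of 35 nuclear receptors 10 were called higher and 7 lower (3 and 3 in all fits), with a median of 0.06. Both shares, 28.6% higher and 20% lower, were above those of all genes tested. The immediate early receptors NR4A2 and NR4A3 fell together, NR4A2 from 6.41 and 5.33 CPM in shCtrl to 2.51 and 3.302 CPM in shFOXA1 and NR4A3 from 5.11 and 5.41 CPM in shCtrl to 2.16 and 2.56 CPM in shFOXA1. RORA, a receptor of the circadian clock, fell by 1.21 ± 0.26 on the log2 scale. RXRA, the common partner of many receptors, rose from 30.6 and 27.9 CPM in shCtrl to 47.6 and 67.3 CPM in shFOXA1, and the call was lost without shCtrl replicate 1 (adjusted p = 0.101) or shCtrl replicate 2 (0.16).

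Nearly all genes for ribosomal proteins were called higher. The list was added after the data had been seen. All 79 passed the filter, and 74 were called higher and 0 lower, 54 of them in all fits, where 11.3% of all genes were called higher. Their median log2 fold change was 0.46 and all 79 values lay between 0.16 and 0.76, the 5 uncalled genes included. RPL13A stood at 1339 and 1213 CPM in shCtrl and 1965 and 2348 CPM in shFOXA1, a log2 change of 0.76 ± 0.088 (adjusted p = 0.000381). RPL3 stood at 1545 and 1462 CPM in shCtrl and 2215 and 2448 CPM in shFOXA1 and RPS24 at 558 and 531 CPM in shCtrl and 818 and 862 CPM in shFOXA1, with 0.63 ± 0.066 and 0.63 ± 0.061. RPL37 rose by 0.61 ± 0.075. In all 4 genes both hairpin libraries were above both controls. Leaving out 1 library gave 54 to 76 genes called higher, the lowest without shCtrl replicate 2, and scaling by library totals alone gave 72. Ribosomal protein genes have many processed copies in the genome, so single values carry an uncertainty from how reads were assigned.

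The factors that work with ribosomes moved both ways, 36.2% called higher and 19.1% lower, against 11.3% and 12.3% of all genes tested. The list was also added after seeing the data. Of 47 translation factors 17 were called higher and 9 lower. In all fits 10 were higher and 0 lower, and the median was 0.09. EEF1A1, which brings aminoacyl-tRNA to the ribosome, stood at 5965 and 5807 CPM in shCtrl and 8243 and 9238 CPM in shFOXA1, a log2 fold change of 0.57 ± 0.066 (adjusted p = 0.000121). EEF2, which moves the ribosome along the message, stood at 2160.4 and 2183 CPM in shCtrl and 3016 and 3437 CPM in shFOXA1, with 0.57 ± 0.068. EIF3L, a subunit of an initiation factor, rose by 0.59 ± 0.079. EIF4EBP1, a repressor of cap-dependent translation when mTOR is off, went from 65.8 and 63.7 CPM in shCtrl to 49.9 and 36.3 CPM in shFOXA1 (-0.59 ± 0.15). Its call was lost without shCtrl replicate 1 or shCtrl replicate 2. Without shCtrl replicate 2 the number called lower was 0.

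The enzymes that load amino acids onto tRNA were called lower more often than higher. Their shares were 37.5% lower and 5% higher, against 12.3% and 11.3% of all genes tested. Genes of amino acid supply had 33.3% lower and 4.44% higher. Of 40 aminoacyl-tRNA synthetases 15 were called lower and 2 higher, with 8 lower in all fits and a median of -0.13. GARS1, for glycine, stood at 219.8 and 239.5 CPM in shCtrl and 149 and 131 CPM in shFOXA1, which was -0.71 ± 0.075 (adjusted p = 8.16e-05) on the log2 scale. CARS1, for cysteine, MARS1, for methionine, and AARS1, for alanine, fell, with log2 fold changes of -0.65 ± 0.079, -0.57 ± 0.094 and -0.56 ± 0.065. All 4 were lower in both hairpin libraries. Of 45 genes of amino acid supply 15 were called lower and 2 higher, 6 lower in all fits, with a median of -0.15. PHGDH, which opens serine synthesis, stood at 76.2 and 72.7 CPM in shCtrl and 45.5 and 36.1 CPM in shFOXA1, a log2 change of -0.87 ± 0.10 (adjusted p = 0.000356). SLC7A11, the cystine importer, stood at 73.4 and 82.4 CPM in shCtrl and 25.9 and 16.6 CPM in shFOXA1 (-1.88 ± 0.25), and the call was lost without shCtrl replicate 1 (adjusted p = 0.163) or shCtrl replicate 2 (0.189). BCAT1, a transaminase of branched-chain amino acids, fell by 1.38 ± 0.36, and the call was lost without shCtrl replicate 2 (adjusted p = 0.131). SLC7A8, a carrier of neutral amino acids, was the exception, at 5.55 and 4.896 CPM in shCtrl and 11.4 and 14.2 CPM in shFOXA1, and rose by 1.30 ± 0.15.

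Many of these genes are known targets of ATF4, which with C/EBP partners reads the composite element TTGCATCA. That element, on both strands, stood in 0.383% of the 12276 promoters of the same length, in 0.333% of those called higher and in 0.59% of those called lower. It stood in 2 of 13 promoters of tRNA synthetase genes called lower, AARS1 and IARS1, and in 2 of 13 of amino acid supply genes called lower. Over the whole lists, whatever the change, it stood in 2 of 33 synthetase promoters (6.06%) and 3 of 33 amino acid supply promoters (9.09%). Both lists were thus already above the share over all promoters. Of the genes that fell at least 2-fold in all fits, 1 of 101 with a promoter had it, CHAC1, which breaks down glutathione, and 2 of 103 of those that rose that far. IARS1 and CHAC1 were chosen after their values were seen. The windows below show the match in capitals and come from RefSeq, GRCh38.p14. They lie at chr16:70289636-70289743 (minus strand) for AARS1, chr9:92293698-92293760 (minus) for IARS1 and chr15:40953221-40953319 (plus) for CHAC1.
AARS1: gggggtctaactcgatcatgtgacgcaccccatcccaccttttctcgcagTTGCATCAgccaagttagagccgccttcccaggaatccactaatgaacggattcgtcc
IARS1: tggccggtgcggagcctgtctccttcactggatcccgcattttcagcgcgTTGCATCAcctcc
CHAC1: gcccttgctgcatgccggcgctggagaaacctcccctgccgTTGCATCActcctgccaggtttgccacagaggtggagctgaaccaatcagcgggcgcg
AARS1 stood at 406 and 403 CPM in shCtrl and 289 and 261 CPM in shFOXA1. IARS1, the isoleucine enzyme, had 334 and 365 CPM in shCtrl and 271 and 245 CPM in shFOXA1, a log2 fold change of -0.44 ± 0.070 (adjusted p = 0.00092). CHAC1 had 2.54 and 3.16 CPM in shCtrl and 1.095 and 0.595 CPM in shFOXA1, which was -1.75 ± 0.30 (adjusted p = 0.00145) on the log2 scale. In each the hairpin libraries lay below the controls. The match begins at position -187 in AARS1, -13 in IARS1 and -209 in CHAC1.

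DNA repair genes that passed the test were all lower. Of 63 tested 35 were called lower, 19 in all fits, with a median of -0.31, where 12.3% of all genes were called lower. CLSPN, which relays the replication checkpoint, stood at 44.05 and 42.9 CPM in shCtrl and 28.4 and 25.6 CPM in shFOXA1, a log2 change of -0.68 ± 0.083 (adjusted p = 0.000158). The helicase BLM and the nuclease EXO1 fell, with log2 fold changes of -0.58 ± 0.086 and -0.57 ± 0.068. The fall of CLSPN was the largest of the list. Leaving out 1 library gave 20 to 38 genes called lower, the lowest without shCtrl replicate 2.

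Regulators of the G1 phase split by direction. Both shares, 51.4% lower and 18.9% higher, were above the 12.3% and 11.3% of all genes tested. Nucleotide synthesis genes had 31.0% lower and 2.38% higher. Of 37 tested 19 were called lower and 7 higher, 11 and 3 in all fits, with a median of -0.26. RB1, which holds E2F factors back, stood at 92.2 and 94.9 CPM in shCtrl and 55.3 and 56.2 CPM in shFOXA1, a log2 fold change of -0.75 ± 0.064 (adjusted p = 1.77e-05). E2F2, one of the activating E2F factors, stood at 82.4 and 85.03 CPM in shCtrl and 55.5 and 44.4 CPM in shFOXA1 and fell by 0.74 ± 0.096. CDKN1A, the p21 inhibitor of cyclin-dependent kinases, stood at 250.1 and 273 CPM in shCtrl and 434 and 434 CPM in shFOXA1, a rise of 0.73 ± 0.063. CDKN2B, the p15 inhibitor, fell by 0.80 ± 0.18, and the call was lost without shCtrl replicate 1 (adjusted p = 0.0546). CCND1, which encodes cyclin D1 and was chosen after its values were seen, rose by 0.38 ± 0.065. Of 42 genes of nucleotide synthesis 13 were called lower and 1 higher, 10 lower in all fits, with a median of -0.13. MTHFD2, of mitochondrial folate metabolism, fell from 189.8 and 195 CPM in shCtrl to 127 and 120.2 CPM in shFOXA1, and TK1, the thymidine kinase, from 117 and 122 CPM in shCtrl to 74.8 and 84.6 CPM in shFOXA1. SAMHD1, which degrades nucleotides, fell, with a log2 fold change of -0.58 ± 0.080.

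Genes that condense and untangle chromosomes were also called mostly lower, 53.8% lower and 7.69% higher, against 12.3% and 11.3% of all genes tested. Of 26 tested 14 were called lower and 2 higher, 10 lower in all fits, with a median of -0.23. NCAPG, a subunit of condensin I, stood at 87.9 and 94.7 CPM in shCtrl and 62.1 and 51.5 CPM in shFOXA1, which was -0.68 ± 0.087 (adjusted p = 0.000381) on the log2 scale. The chromokinesin KIF4A stood at 81.6 and 87.04 CPM in shCtrl and 55.9 and 49.6 CPM in shFOXA1 and fell by 0.68 ± 0.075. NCAPH and SMC4, further condensin subunits, fell, with log2 fold changes of -0.48 ± 0.073 and -0.48 ± 0.063. Genes of late cell cycle are known for the cell cycle homology region TTTGAA near their start. Read on both strands in the 250 bases before the start, these letters stood in 8.55% of all promoters, in 6.80% of those called higher and in 11.1% of those called lower. They stood in 7 of 13 promoters of the condensin and topology genes called lower and in 7 of all 24 of that list with a promoter. The windows show 3 of them with each match in capitals, from RefSeq, GRCh38.p14: NCAPG at chr4:17810894-17810978 (plus), KIF4A at chrX:70290020-70290103 (plus) and MKI67 at chr10:128126424-128126520 (minus).
NCAPG: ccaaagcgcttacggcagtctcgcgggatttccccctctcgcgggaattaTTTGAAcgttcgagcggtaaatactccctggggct
KIF4A: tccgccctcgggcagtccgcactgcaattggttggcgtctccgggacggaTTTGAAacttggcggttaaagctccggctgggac
MKI67: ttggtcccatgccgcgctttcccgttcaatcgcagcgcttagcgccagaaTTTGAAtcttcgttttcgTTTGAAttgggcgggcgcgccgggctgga
The match began at position -35 in NCAPG and -34 in KIF4A, and MKI67 had 2. MKI67, the proliferation antigen Ki-67, was shown for its pair of matches and chosen after its values were seen. It stood at 284 and 285 CPM in shCtrl and 219 and 200.5 CPM in shFOXA1, a log2 change of -0.44 ± 0.063 (adjusted p = 0.000494). The CCAAT box, read as CCAAT on both strands, was also unevenly spread, in 34.8% of all promoters, 29.5% of those called higher and 43.2% of those called lower. The E2F element GGCGGGAA stood in 4.29%, 2.60% and 6.54%. Over these same 3 sets other elements searched ran close to their background. AP-1 (TGACTCA) stood in 2.59%, 2.27% and 1.98% and the CRE-like TGACGTG in 2.10%, 2.00% and 2.36%. The steroid receptor element TGTTCT stood in 7.70%, 8.13% and 6.70%. Among genes called in all fits and changed at least 2-fold, TGTTCT was less even, in 14 of 103 higher and 7 of 101 lower. The E2F form TTTCCCGC, which can overlap GGCGGGAA, stood in 2.13%, 1.60% and 2.79%. The E2F form TTTGGCGC, which cannot, stood in 0.782%, 0.533% and 1.29%. The part of base composition in these shares was not tested.

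Genes of the route by which proteins leave the cell were called lower at several steps. Translocon genes had 27.4% lower and 6.45% higher, against 12.3% and 11.3% of all genes tested. Vesicle traffic genes had 38.1% lower and 3.17% higher. Of 62 genes of the ER translocon and oligosaccharyltransferase 17 were called lower and 4 higher, with a median of -0.13, but only 3 of the 17 were lower in all fits and the number was 4 without shCtrl replicate 2 and 6 without shCtrl replicate 1. SRPRB, of the signal recognition particle receptor, stood at 113 and 119 CPM in shCtrl and 88.7 and 84.8 CPM in shFOXA1 and fell by 0.42 ± 0.063. SPCS3, of the signal peptidase, fell by 0.45 ± 0.10, while SEC11A, its catalytic subunit, rose from 150.02 and 158 CPM in shCtrl to 197 and 209 CPM in shFOXA1. ALG8, a glucosyltransferase for N-glycans, fell by 0.39 ± 0.085, and the call was lost without shCtrl replicate 1 (adjusted p = 0.0792). Of 63 vesicle traffic genes 24 were called lower and 2 higher, 6 lower in all fits (6 without shCtrl replicate 2, 13 without shCtrl replicate 1), with a median of -0.16. SEC24D, a cargo adaptor of COPII coats, stood at 12.1 and 13.3 CPM in shCtrl and 6.02 and 4.46 CPM in shFOXA1, a log2 fold change of -1.27 ± 0.16 (adjusted p = 0.00017). CREB3L2, a transcription factor of secretory capacity, stood at 111 and 117 CPM in shCtrl and 80.4 and 81.02 CPM in shFOXA1 and fell by 0.50 ± 0.062. MCFD2, a receptor for coagulation factors, fell by 0.40 ± 0.076, and SEC31B, a coat subunit, rose by 0.79 ± 0.10. XBP1, the factor that the unfolded protein response splices into its active form, was chosen after its values were seen. It stood at 120.1 and 133 CPM in shCtrl and 60.9 and 64.2 CPM in shFOXA1, with a log2 fold change of -1.02 ± 0.070.

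Factors of the bZIP family, which bind DNA as pairs, included large changes both ways. Their shares were 14.3% higher and 28.6% lower, against 11.3% and 12.3% of all genes tested. Clock genes had 25% in each direction. Of 42 tested 6 were called higher and 12 lower (4 and 6 in all fits), with a median of -0.15. MAF, a large Maf factor, stood at 9.79 and 10.1 CPM in shCtrl and 63.6 and 69.9 CPM in shFOXA1, with a log2 fold change of 2.75 ± 0.089. MAFF, a small Maf protein that lacks an activation domain, stood at 10.98 and 13.1 CPM in shCtrl and 4.58 and 4.91 CPM in shFOXA1 and fell by 1.34 ± 0.15. CEBPB, of inflammation and differentiation, fell from 15.5 and 20.05 CPM in shCtrl to 7.15 and 6.84 CPM in shFOXA1, which was -1.35 ± 0.14 (adjusted p = 6.58e-05) on the log2 scale. In these 3 genes the groups did not overlap. Of 24 clock genes 6 were called higher and 6 lower (4 and 3 in all fits), with a median of 0.19. The repressor BHLHE41 and the activator BMAL2 fell, with log2 fold changes of -1.63 ± 0.30 and -1.01 ± 0.13, and NR1D1, the repressor REV-ERB alpha, rose from 5.29 and 5.09 CPM in shCtrl to 8.36 and 9.399 CPM in shFOXA1.

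Redox genes were lower more often than higher, in 25% and 10% of those tested, against 12.3% and 11.3% of all genes. Of 40 tested 10 were called lower and 4 higher, 5 lower in all fits, with a median of -0.15. CYBA, the p22 subunit of NADPH oxidases, stood at 6.35 and 10.9 CPM in shCtrl and 1.44 and 1.37 CPM in shFOXA1, a log2 change of -2.61 ± 0.28 (adjusted p = 0.000232). SRXN1, which restores peroxiredoxins, stood at 3.35 and 5.63 CPM in shCtrl and 0.922 and 1.07 CPM in shFOXA1 and fell by 2.17 ± 0.29. For both the shCtrl libraries were themselves apart, yet both lay above the shFOXA1 libraries. GCLM, the modifier subunit of the enzyme that starts glutathione synthesis, fell from 60.3 and 67.4 CPM in shCtrl to 25.2 and 22.3 CPM in shFOXA1, with an adjusted p of 2.78e-06. Of 36 genes of the BCL2 family and cell death 7 were called lower and 4 higher (3 and 2 in all fits), with a median of 0.02. These shares were 19.4% lower and 11.1% higher, the latter near that of all genes tested. HRK and PMAIP1, activators of death of the BH3-only class, fell, with log2 fold changes of -1.72 ± 0.31 and -0.77 ± 0.14, and BMF and BNIP3, of the same kind, rose by 0.53 ± 0.10 and 0.51 ± 0.079.

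Genes that hold epithelial cells together were called lower more often than higher. Junction genes had 35.6% lower and 6.67% higher, against 12.3% and 11.3% of all genes tested. Keratins had 11.1% lower and 55.6% higher. Of 45 cell junction genes 16 were called lower and 3 higher, 9 lower in all fits, with a median of -0.24. CLDN3, a claudin that seals the gap between cells, stood at 12.4 and 12.8 CPM in shCtrl and 6.72 and 4.37 CPM in shFOXA1 and fell by 1.18 ± 0.18. MARVELD3, a tight junction protein, fell by 0.87 ± 0.14. GJA1, connexin 43 of gap junctions, was the opposite, at 13.9 and 12.3 CPM in shCtrl and 37.5 and 36.3 CPM in shFOXA1, which was called higher (adjusted p = 3.32e-06). Upper quartile scaling gave 13 lower and library totals 19. Of 9 keratins tested 5 were called higher and 1 lower (2 and 1 in all fits), with a median of 1.24. KRT19 and KRT8, of simple epithelia, had 167 and 160.02 CPM in shCtrl and 469 and 548 CPM in shFOXA1 and 191 and 188 CPM in shCtrl and 293 and 357 CPM in shFOXA1. KRT15, a basal keratin, stood at 1.94 and 1.63 CPM in shCtrl and 9.91 and 19.4 CPM in shFOXA1, and the call was lost without shCtrl replicate 1 (adjusted p = 0.242) or shCtrl replicate 2 (0.286). KRT10, of differentiated skin, fell by 1.02 ± 0.17.

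Matrix and guidance genes were called higher more often than lower. Matrix genes had 30.6% higher and 16.1% lower, both above the 11.3% and 12.3% of all genes tested. Guidance genes had 24.6% higher and 10.1% lower. Of 62 matrix and integrin genes 19 were called higher and 10 lower, 8 and 3 in all fits, with a median of 0.20. THBS1, thrombospondin 1, stood at 33.4 and 32.9 CPM in shCtrl and 117 and 181 CPM in shFOXA1, and the call was lost without shCtrl replicate 1 (adjusted p = 0.305) or shCtrl replicate 2 (0.335). ITGB8, an integrin that activates TGF-beta, rose by 1.53 ± 0.33, and the call was lost without shCtrl replicate 2 (adjusted p = 0.0808). ITGA2, of the collagen receptor, and COL9A2, of cartilage collagen, fell, with log2 fold changes of -1.10 ± 0.18 and -1.28 ± 0.21. COL21A1, a collagen of blood vessel walls, and BGN, the proteoglycan biglycan, were among the largest rises, COL21A1 from 0.0578 and 0.136 CPM in shCtrl to 1.18 and 2.05 CPM in shFOXA1 and BGN from 0.231 and 0.109 CPM in shCtrl to 1.27 and 1.22 CPM in shFOXA1. Of 69 neural adhesion and guidance genes 17 were called higher and 7 lower, 11 and 5 in all fits, with a median of 0.20. SEMA3F, a secreted repellent of axons, stood at 7.97 and 6.83 CPM in shCtrl and 20.7 and 28.2 CPM in shFOXA1, a log2 change of 1.73 ± 0.16 (adjusted p = 9.93e-05). PCDH19, a protocadherin, stood at 6.33 and 5.17 CPM in shCtrl and 0.634 and 1.19 CPM in shFOXA1, a log2 fold change of -2.65 ± 0.27 (adjusted p = 6.31e-05). SLIT2, the ligand of ROBO receptors, and CDH12, a cadherin of brain, fell, with log2 fold changes of -1.61 ± 0.25 and -1.47 ± 0.25.

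Targets and brakes of the ERK pathway included several that fell. Their shares were 32% lower and 8% higher, against 12.3% and 11.3% of all genes tested. Of 25 genes in the MAPK output list 8 were called lower and 2 higher, 5 and 2 in all fits, with a median of -0.11. The PEA3 factors ETV1, ETV4 and ETV5, ETS proteins induced by ERK, moved alike: ETV1 stood at 46.4 and 48.3 CPM in shCtrl and 19.5 and 20.2 CPM in shFOXA1, ETV5 at 48.6 and 52.9 CPM in shCtrl and 26.5 and 22.5 CPM in shFOXA1 and ETV4 at 26.7 and 27.8 CPM in shCtrl and 15.7 and 12.3 CPM in shFOXA1. Their log2 fold changes were -1.25 ± 0.081, -1.05 ± 0.093 and -0.97 ± 0.12. SPRY4, a feedback inhibitor of receptor tyrosine kinases, fell from 11.99 and 13.2 CPM in shCtrl to 6.77 and 6.54 CPM in shFOXA1, which was -0.92 ± 0.13 (adjusted p = 0.000412) on the log2 scale. Of 27 EGF and IGF genes 4 were called higher and 3 lower (3 and 1 in all fits), with a median of 0.06. The EGF and IGF shares, 14.8% higher and 11.1% lower, were near the 11.3% and 12.3% of all genes tested. The receptors differed: ERBB4, a receptor of neuregulins, stood at 3.61 and 4.13 CPM in shCtrl and 1.33 and 1.25 CPM in shFOXA1, a log2 change of -1.59 ± 0.22 (adjusted p = 0.000381). ERBB3, another receptor of neuregulins, rose by 0.40 ± 0.059, and IGF1R, the receptor of insulin-like growth factors, stood at 54.1 and 46.8 CPM in shCtrl and 97.8 and 92.5 CPM in shFOXA1 and rose by 0.92 ± 0.078. GRB14, an adaptor that inhibits the insulin receptor, fell by 0.46 ± 0.14, and the call was lost without shCtrl replicate 1 (adjusted p = 0.287), shCtrl replicate 2 (0.122) or without shFOXA1 replicate 2 (0.0538).

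In the Wnt pathway 4 of 44 genes were called higher and 6 lower (1 and 4 in all fits), with a median of 0.02, close to the background. The secreted inhibitor DKK1 stood at 8.35 and 8.595 CPM in shCtrl and 1.35 and 0.714 CPM in shFOXA1. TNFRSF19 and the receptor FZD5 fell, with log2 fold changes of -1.18 ± 0.22 and -0.62 ± 0.086. RNF43, which removes Wnt receptors from the surface, fell by 0.60 ± 0.14, and the call was lost without shCtrl replicate 2 (adjusted p = 0.102). Of 43 cytokine and JAK-STAT genes 10 were called higher and 5 lower (3 and 1 in all fits), with a median of 0.06. The cytokine shares were 23.3% higher and 11.6% lower, against 11.3% and 12.3% of all genes tested. SOCS2 and CISH, feedback inhibitors of the STAT5 pathway, had 0.607 and 0.571 CPM in shCtrl and 4.29 and 9.31 CPM in shFOXA1 and 6.297 and 8.19 CPM in shCtrl and 11.8 and 15.8 CPM in shFOXA1. For SOCS2 the call was lost without shCtrl replicate 1 (adjusted p = 0.132) or shCtrl replicate 2 (0.16). SOCS3, of the STAT3 pathway, rose by 0.93 ± 0.31, and the call was lost without shCtrl replicate 1 (adjusted p = 0.121), shCtrl replicate 2 (0.242) or without shFOXA1 replicate 2 (0.0972). JAK3, a kinase of lymphocyte cytokine receptors, rose by 0.76 ± 0.15, and the call was lost without shCtrl replicate 2 (adjusted p = 0.0679). Of 33 genes of diacylglycerol signalling 4 were called higher and 4 lower (1 and 1 in all fits), with a median of 0.07. The diacylglycerol shares, 12.1% in each direction, were near the 11.3% higher and 12.3% lower of all genes tested. DGKG, a kinase that removes diacylglycerol, stood at 0.462 and 0.408 CPM in shCtrl and 3.86 and 7.97 CPM in shFOXA1, a log2 fold change of 3.75 ± 0.43 (adjusted p = 0.00105). PLCB4, which makes diacylglycerol, fell by 0.60 ± 0.12.

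Genes of hormone storage and release were called lower more often than higher, in 23.3% and 9.30%, against 12.3% and 11.3% of all genes. Of 43 peptide hormone and granule genes 10 were called lower and 4 higher, 7 and 3 in all fits, with a median of -0.19. RAB27B, which docks secretory granules, stood at 32.7 and 36.3 CPM in shCtrl and 12.7 and 9.82 CPM in shFOXA1, which was -1.62 ± 0.12 (adjusted p = 1.33e-05) on the log2 scale. BHLHA15, a factor of secretory cells also named MIST1, stood at 1.62 and 2.26 CPM in shCtrl and 0.288 and 0.387 CPM in shFOXA1. CALCA, which encodes calcitonin, stood at 1.59 and 1.88 CPM in shCtrl and 0.461 and 0.208 CPM in shFOXA1. EDN2, an endothelin, went the other way, from 9.27 and 9.19 CPM in shCtrl to 19.5 and 26.5 CPM in shFOXA1, a rise of 1.32 ± 0.14. Of 30 liver program genes 6 were called lower and 3 higher (2 and 1 in all fits), with a median of -0.07. The liver shares were 20% lower and 10% higher. FGL1, a secreted ligand of LAG3, stood at 6.24 and 6.34 CPM in shCtrl and 1.18 and 1.28 CPM in shFOXA1, a log2 change of -2.35 ± 0.20 (adjusted p = 1.69e-05), and complement C5 fell by 0.61 ± 0.082. AMBP, a plasma protein precursor, fell by 0.82 ± 0.25, and the call was lost without shCtrl replicate 1 (adjusted p = 0.127), shCtrl replicate 2 (0.161) or without shFOXA1 replicate 2 (0.0608). CLU, the chaperone clusterin, rose by 0.51 ± 0.060.

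A channel and its partner moved in opposite directions. LRRC26, an auxiliary subunit of the BK potassium channel that lets it open at resting voltage, stood at 3.004 and 2.37 CPM in shCtrl and 0.173 and 0.149 CPM in shFOXA1, a log2 fold change of -4.03 ± 0.37 (adjusted p = 2.65e-05). KCNMA1, the pore of the same channel, stood at 1.53 and 1.93 CPM in shCtrl and 4.41 and 6.22 CPM in shFOXA1, which was 1.61 ± 0.23 (adjusted p = 0.000437) on the log2 scale. Both pairs were clear of each other. LRRC26 is unusual in its base composition, with 74.7% GC. The 69 genes of at least 70% GC had a median log2 fold change of -0.13, and a fit with GC and length offsets, added after seeing the data, gave LRRC26 a log2 fold change of -3.81 and called 4455 genes in all. Of 48 potassium and calcium channel genes 10 were called higher and 7 lower (4 and 3 in all fits), with a median of 0.14. The channel shares were 20.8% higher and 14.6% lower, against 11.3% and 12.3% of all genes tested. KCNJ8, of ATP-sensitive channels, fell by 1.52 ± 0.35, and KCNQ5 rose by 1.12 ± 0.21, and the call was lost without shCtrl replicate 1 (adjusted p = 0.245) or shCtrl replicate 2 (0.269).

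Surface molecules changed in both directions. Of 53 glycosylation genes 7 were called higher and 9 lower (3 and 4 in all fits), with a median of 0.05. The glycosylation shares, 13.2% higher and 17.0% lower, were near the 11.3% and 12.3% of all genes tested. ST8SIA6, a sialyltransferase, stood at 1.24 and 1.01 CPM in shCtrl and 7.06 and 12.2 CPM in shFOXA1, a log2 change of 3.10 ± 0.30 (adjusted p = 0.000254). GALNT7, an enzyme of mucin-type glycosylation, fell by 0.89 ± 0.11. Of 28 surface antigens 6 were called higher and 4 lower (4 and 3 in all fits), with a median of 0.09. The surface antigen shares were 21.4% higher and 14.3% lower, against 11.3% and 12.3% of all genes tested. GPC3, a heparan sulfate proteoglycan, and CD44, the hyaluronan receptor, rose from 7.83 and 6.99 CPM in shCtrl to 17.3 and 23.1 CPM in shFOXA1 and from 20.7 and 22.1 CPM in shCtrl to 38.4 and 51.9 CPM in shFOXA1. MET, the receptor of hepatocyte growth factor, and B4GALNT1, the enzyme that makes gangliosides GM2 and GD2, fell, with log2 fold changes of -1.02 ± 0.12 and -1.02 ± 0.13. Of 29 antigen presentation genes 7 were called lower and 5 higher, 5 lower in all fits, with a median of -0.07. Their shares were 24.1% lower and 17.2% higher, both above those of all genes tested. ULBP2 and MICB, stress ligands of the NKG2D receptor, stood at 3.41 and 3.62 CPM in shCtrl and 0.605 and 1.01 CPM in shFOXA1 and at 6.79 and 7.15 CPM in shCtrl and 2.22 and 2.29 CPM in shFOXA1. HLA-B and HLA-DMB fell, with log2 fold changes of -1.10 ± 0.18 and -0.89 ± 0.17. HLA and MIC genes have close relatives, so their reads may be shared with them.

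Long noncoding RNAs studied in prostate cancer rose more often than they fell. Of 32 tested 13 were called higher and 3 lower, 6 and 2 in all fits, with a median of 0.24. These shares were 40.6% higher and 9.38% lower, against 11.3% and 12.3% of all genes tested. Transcripts annotated as lincRNA also leaned higher, with 89 higher and 21 lower of 1023. The direction was thus not particular to this list. H19, the imprinted RNA, stood at 0.7799 and 0.898 CPM in shCtrl and 1.82 and 2.68 CPM in shFOXA1, a log2 fold change of 1.41 ± 0.29 (adjusted p = 0.00464). DRAIC, a transcript with tumour-suppressor effects, stood at 8.66 and 8.405 CPM in shCtrl and 4.78 and 2.38 CPM in shFOXA1, and the call was lost without shCtrl replicate 1 (adjusted p = 0.104) or shCtrl replicate 2 (0.119). SOCS2-AS1, which runs antisense to SOCS2, stood at 0 and 0.136 CPM in shCtrl and 0.605 and 2.17 CPM in shFOXA1, and the call was lost without shCtrl replicate 1 (adjusted p = 0.163) or shCtrl replicate 2 (0.0957). Without a known strand setting its reads cannot be told apart from those of SOCS2.

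The remaining lists gave smaller or mixed counts. Over all genes tested 11.3% were called higher and 12.3% lower. Fatty acid oxidation had 10 called higher and 10 lower of 58 (3 and 4 in all fits, median 0.01), with the fatty acid carrier SLC27A1 at 1.03 ± 0.11 and its relative SLC27A2 at -1.15 ± 0.22. Polyamine genes had 4 higher and 6 lower of 25 (1 and 2 in all fits, median -0.10), with ARG2, the mitochondrial arginase, at 12.2 and 12.7 CPM in shCtrl and 5.07 and 3.48 CPM in shFOXA1. Zinc carriers and metallothioneins had 2 higher and 5 lower of 27 (0 and 1 in all fits, median -0.11), with the ER zinc carrier SLC39A7 at -0.41 ± 0.067. Lysosome and autophagy genes had 9 higher and 16 lower of 68 (2 and 5 in all fits, median -0.01), with GABARAPL1, of autophagosome membranes, at -0.82 ± 0.086. RNA sensing and RNA interference genes had 0 higher and 6 lower of 27 (0 and 2 in all fits, median -0.06), with AGO1 at -0.39 ± 0.076 and the kinase TBK1 at -0.34 ± 0.063. Chromatin enzymes had 11 higher and 13 lower of 91 (2 and 3 in all fits, median -0.01), with the deacetylases HDAC7 at 0.47 ± 0.071 and SIRT1 at -0.43 ± 0.074. Their shares lay near the background. Nuclear genes of the respiratory chain had 4 higher and 11 lower of 77 (0 and 4 in all fits, median -0.02). The HOX list had 2 higher and 2 lower of 24 (1 and 0 in all fits, median -0.41), 8.33% in each direction. HOXB3, at 0.89 ± 0.14, and HOXB13 were the 2 higher and HOXC10 and HOXC13 the 2 lower. Values in the HOX list ran from -0.93 to 0.89. The list of SOX, ETS and KLF factors had 9 higher and 6 lower of 49 (4 and 4 in all fits, median 0.00).

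**Figure D3:**
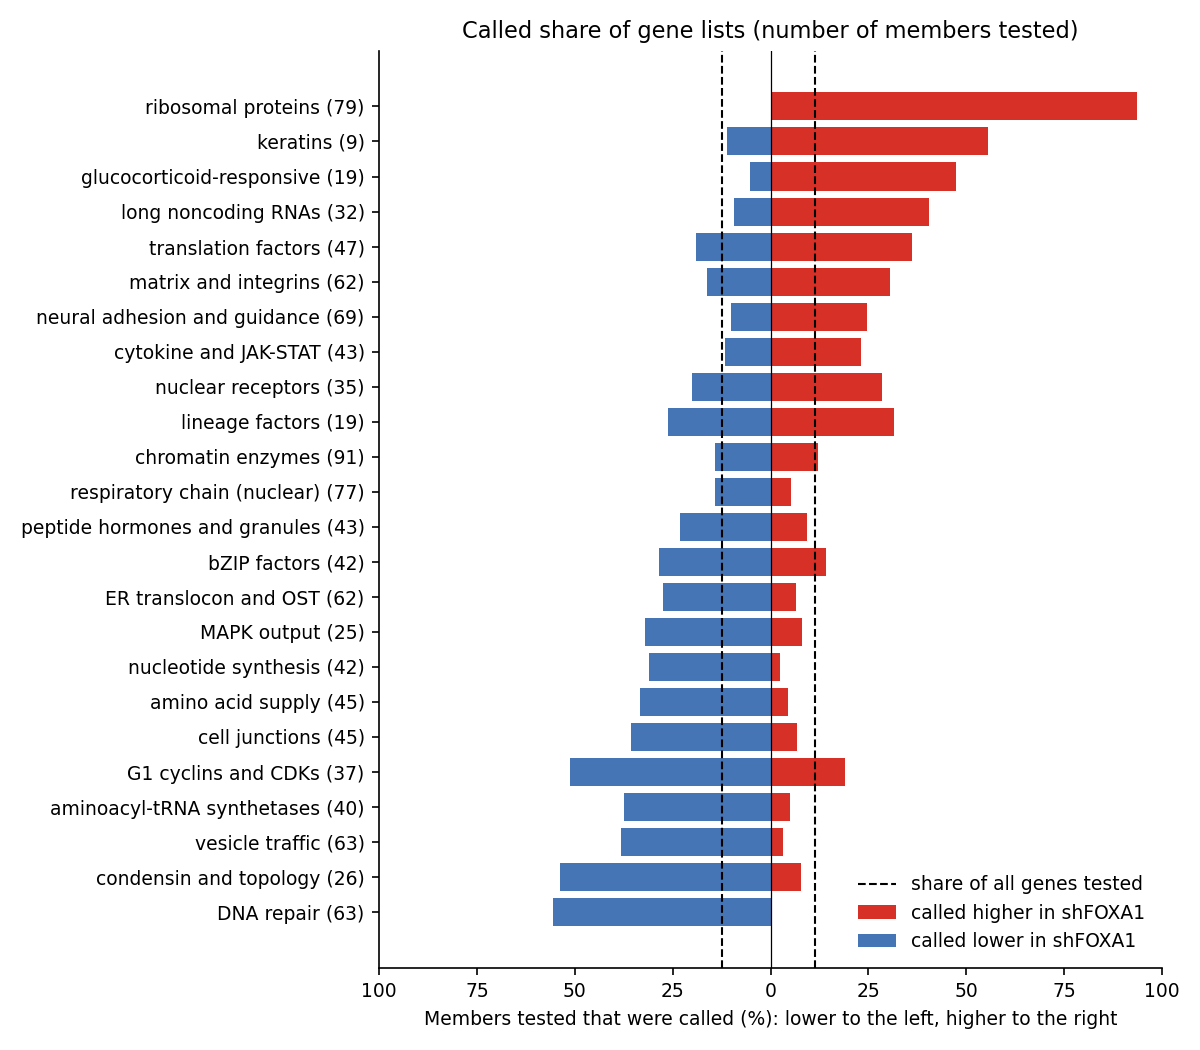
Share of the tested members of 24 gene lists (y axis, number tested in brackets) that were called higher in shFOXA1 (red, to the right) or lower (blue, to the left), in percent (x axis). Dashed lines mark the shares over all genes tested, 11.3% higher and 12.3% lower. Ribosomal protein genes stand furthest to the right and DNA repair genes are called only lower.

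The knockdown was set beside the 24 h degradation of a FOXA1 fusion, each against its own controls, in a joint fit that tested the difference between the changes. Of 20795 genes, 22.7% differed by that test. The 24 h change alone was called higher for 17.6% and lower for 19.9%. Of genes called in both comparisons, 2213 had the same direction and 528 opposite directions, 270 of these higher and 258 lower in the knockdown. The comparisons differ in cell line, agent and time, and these cannot be told apart.

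Most ribosomal protein genes differed between the depletions. At 24 h their median log2 fold change was 0.02, with 2 called higher and 4 lower, against 0.46 in the knockdown, and 73 of 79 passed the test of the difference. RPL13A had 0.12 at 24 h and RPL3 had 0.11, neither called there, and the differences were 0.64 (adjusted p = 0.00065) and 0.52. DNA repair genes had a median of -0.53 at 24 h, with 46 called lower, and nucleotide synthesis genes had -0.54, with 33 called lower. In these lists 35 of 63 and 31 of 42 genes differed between the depletions. The glucocorticoid-responsive list had a median of 0.48 in the knockdown and 0.47 at 24 h, and 11 of its 19 genes differed between the depletions. Amino acid supply genes had a median of -0.46 at 24 h, with 28 called lower, and 20 of 45 differed. The tRNA synthetases had -0.26, with 28 called lower, and 17 of 40 differed. Nuclear genes of the respiratory chain had -0.20 with 49 called lower at 24 h, against 11 in the knockdown, and 36 of 77 differed.

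**Figure D4:**
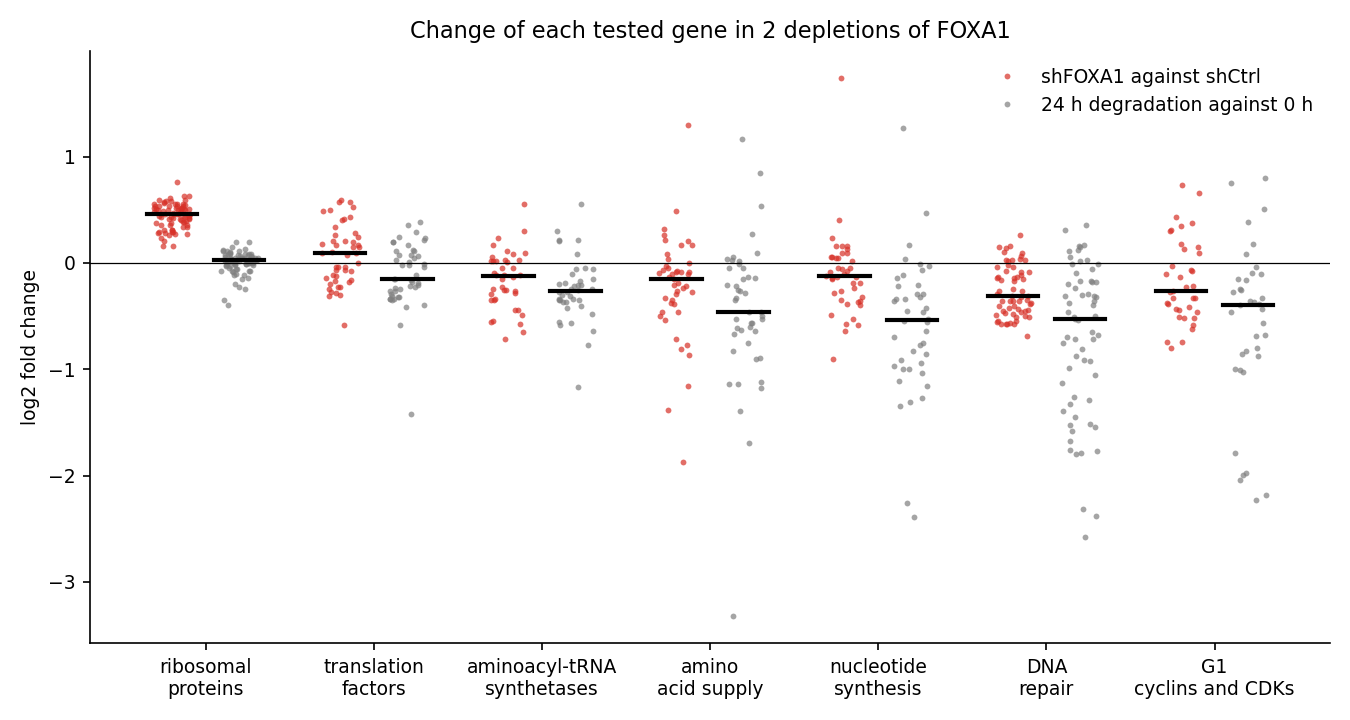
Log2 fold change (y axis) of every tested gene of 7 lists (x axis) in shFOXA1 against shCtrl (red points) and at 24 h of degradation against 0 h (grey points), with the median as a black line. The ribosomal protein medians are 0.46 and 0.02, and the grey points of DNA repair and nucleotide synthesis reach lower than the red ones.

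Of 13 luminal markers 6 differed between the depletions, where 22.7% of all genes did. FOLH1 had 0.10 in the knockdown and -1.40 at 24 h, and STEAP2 had 0.15 and -1.76. The differences of FOLH1 and STEAP2 were 1.51 (adjusted p = 3.6e-12) and 1.91 (adjusted p = 3.2e-11). FOLH1 and STEAP2 were not called in the knockdown, at 697 and 687 CPM in shCtrl and 759.6 and 728 CPM in shFOXA1 for FOLH1 and 402 and 375 CPM in shCtrl and 465 and 397 CPM in shFOXA1 for STEAP2. CLU, of the liver program list, rose in the knockdown and had -1.61 at 24 h, a difference of 2.12 (adjusted p = 3.6e-15). FOXM1 was lower in both, at -0.78 and -0.93 (adjusted p of the difference = 0.3), and so were GRHL1 (-0.80 and -0.48) and EPCAM (-0.52 and -0.56). FOXA1 mRNA itself was lower in the knockdown and had 0.24 at 24 h, where the agent acts on the protein.

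**Figure D5:**
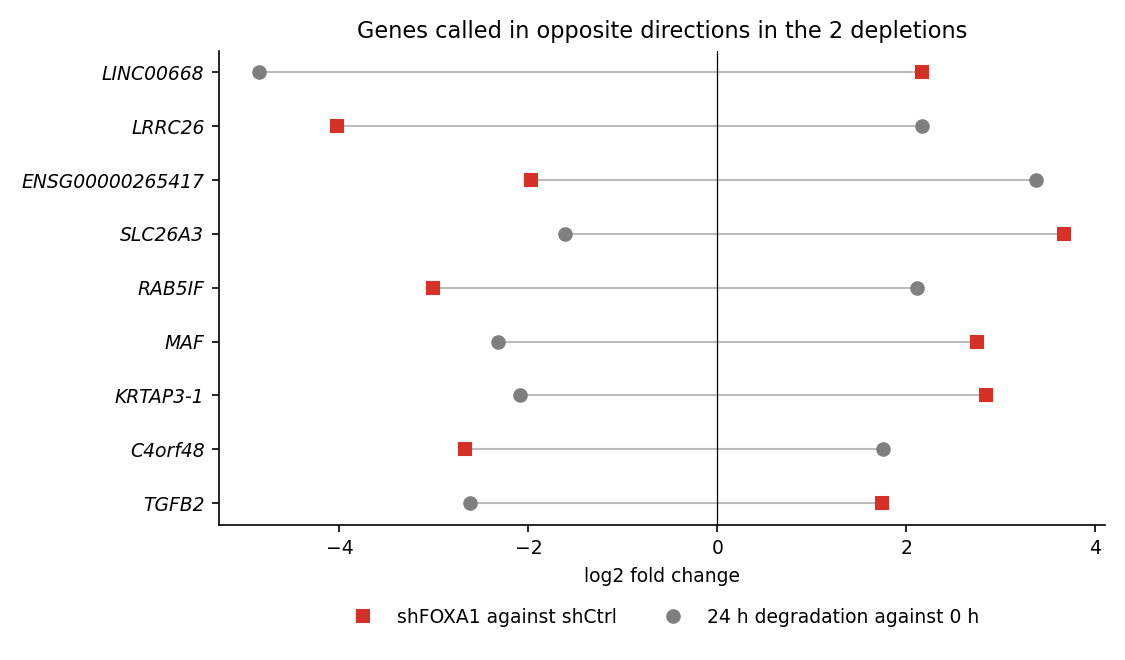
Log2 fold change (x axis) of 9 genes (y axis) with large tested differences among those called in opposite directions, in shFOXA1 against shCtrl (red squares) and at 24 h of degradation against 0 h (grey circles). LRRC26, RAB5IF, C4orf48 and 1 gene without a symbol are lower in the knockdown and higher at 24 h, and the other 5 are the reverse.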

How the data were processed

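RNA from 22Rv1 cells was sequenced from total RNA. The deposited values are raw counts per gene, which the authors made with STAR and featureCounts on hg19, per the submitters' processing notes, which also name DESeq2 and give no versions. The strand setting is not given in the sources used here. The robust quasi-likelihood fit of edgeR 4.0.16 (R 4.3.3) was used after filterByExpr and TMM scaling, and p-values were adjusted by the Benjamini-Hochberg method over 19128 genes. Totals of 34.09 to 36.53 M counts set the precision, and intervals cover counting error only. The difference from the 24 h degradation was an interaction term over 8 libraries. Alternatives were other scalings and filters, DESeq2 1.42.0, a replicate block, leaving out each library, and, chosen after seeing the data, GC and length offsets.

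Gene lists held 2267 entries, of which 2249 matched. Members and lists were chosen with earlier results of these data known. Named genes were FOXA1, up to 4 called members of each list with the largest change and a group mean of at least 1 CPM, members of the marker lists, the 25 highest and 25 lowest genes called in all fits, genes with at most 3 counts in a group, the 10 called genes of highest level and the 10 called in opposite directions at 24 h with the largest difference. IARS1, CHAC1, CCND1, MKI67, XBP1, DNAJC12 and CPN1, and uncalled members with values, were named after their values were seen. Promoter windows came from RefSeq (GRCh38.p14), matched by symbol, and no coordinates of the count files were used. Results for some genes are not reported here.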

Additional observations from a re-analysis of the deposited data

Results flagged for a closer look

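Genes with the largest differences among those called in opposite directions in the knockdown and at 24 h of degradation are given with both log2 fold changes and the tested difference, knockdown minus 24 h. The comparisons do not share libraries, and their cell line, agent and time differ, which cannot be told apart from the response to FOXA1 loss.

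MAF, a large Maf factor, had 2.75 and -2.32, a difference of 5.07 (adjusted p = 3.4e-19). SLC26A3, a chloride and bicarbonate exchanger, stood at 0.924 and 0.952 CPM in shCtrl and 10.03 and 14.01 CPM in shFOXA1, and had 3.67 and -1.61, a difference of 5.28 (adjusted p = 8.1e-12). Both were higher in the knockdown and lower at 24 h, and so were the next 3. LINC00668, a long noncoding RNA, had 2.17 and -4.85, a difference of 7.02 (adjusted p = 0.0067). KRTAP3-1, a keratin-associated protein with close relatives, had 2.84 and -2.09, a difference of 4.93 (adjusted p = 0.00041), and the call was lost without shCtrl replicate 1 (adjusted p = 0.0592) or without shFOXA1 replicate 2 (0.0617). TGFB2, a TGF-beta ligand, had 1.74 and -2.62, a difference of 4.36 (adjusted p = 1.2e-07), and the call was lost without shCtrl replicate 1 (adjusted p = 0.307), shCtrl replicate 2 (0.0517) or without shFOXA1 replicate 2 (0.097).

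The other 4 were lower in the knockdown and higher at 24 h. LRRC26 had -4.03 and 2.17, a difference of -6.20 (adjusted p = 3.4e-08). RAB5IF, a factor of membrane protein insertion, stood at 17.2 and 23.5 CPM in shCtrl and 2.31 and 2.74 CPM in shFOXA1, and had -3.01 and 2.11, a difference of -5.12 (adjusted p = 3.2e-08). C4orf48, which encodes a small secreted peptide, had -2.67 and 1.76, a difference of -4.43 (adjusted p = 0.0077). ENSG00000265417, a gene without a symbol, had -1.97 and 3.38, a difference of -5.35 (adjusted p = 0.0052), and the call was lost without shCtrl replicate 2 (adjusted p = 0.21) or without shFOXA1 replicate 2 (0.0562). RAB5IF and C4orf48 also differed between the shCtrl libraries, with 596 and 863 counts and with 126 and 251 counts. LRRC26 and C4orf48 have 74.7% and 73.2% GC.

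The change of 73 ribosomal protein genes in the knockdown differed from that at 24 h by the same test. The list was added after seeing the data.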

How the results depend on the processing

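Without 1 library a group has a single library, assumed to vary like the other group, and the effect of that library was not separated from the spread of the group left to supply it. Leaving out 1 library gave 1713 to 6793 called genes (1713 without shCtrl replicate 2, 6793 without shFOXA1 replicate 1), against 4506, and 350 to 997 genes called at least 2-fold, against 580. DESeq2 called 3487 genes, 385 of them at least 2-fold. RLE scaling called 4523, upper quartile scaling 4455, library totals 4577, no filter 5239, at least 1 CPM in 2 libraries 4473, and GC and length offsets 4455, of which 3873 were shared with the 4506. The share called higher was 47.8%, 56.7% with upper quartile scaling and 41.7% with library totals. Replicate numbers did not pair the libraries (r = 0.034 between deviations). With the replicate block 4412 genes were called, 610 at least 2-fold, the FOXA1 log2 fold change was -0.47 (adjusted p = 0.000891) and 4539 genes differed from the 24 h change. The FOXA1 value ran from -0.53 to -0.42 over the fits without 1 library and was called in each. The number that differed from the 24 h change ran from 3431 to 5940 over such fits, against 4712. FOXA3, which was not called, changed sign without shCtrl replicate 2, with values from -0.0556 to 1.1209 over the fits that leave out 1 library. No other named gene with a value changed direction. DESeq2 gave the same call for 205 named genes, a lost call for 13 and a new call for 2, TMPRSS2 and COL3A1, and gave no adjusted p for the rest. TMPRSS2 and COL3A1 were also called with at least 1 CPM in 2 libraries (adjusted p = 0.0477 and 0.0488) and in each fit that leaves out 1 shFOXA1 library. COL3A1 was further called with the replicate block (adjusted p = 6.6e-05) and with no filter beyond 1 count (0.0422). STEAP2 had a log2 fold change of 0.26 without shFOXA1 replicate 2, where it was called, and 0.03 without shFOXA1 replicate 1.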

Other observations

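Of the 10 called genes of highest level, 7 are encoded by the mitochondrial genome and all 7 were higher in shFOXA1. MT-RNR2, a ribosomal RNA, stood at 7822 and 7521 CPM in shCtrl and 9771 and 10856 CPM in shFOXA1, a log2 fold change of 0.43 ± 0.065 (adjusted p = 0.000722), and was called in all fits. MT-CO1, MT-CO2, MT-ND5, MT-CYB, MT-ND1 and MT-ND4L, subunits of the respiratory chain, had log2 fold changes of 0.30 ± 0.061, 0.28 ± 0.060, 0.26 ± 0.060, 0.22 ± 0.057, 0.19 ± 0.057 and 0.28 ± 0.066. Without shCtrl replicate 2 the calls of these 6 were lost (adjusted p from 0.122 to 0.327), and without shCtrl replicate 1 those of 5, all but MT-ND4L (adjusted p from 0.0521 to 0.296). HSP90B1, the ER chaperone GRP94, stood at 2928 and 3124 CPM in shCtrl and 2495 and 2291 CPM in shFOXA1 and fell by 0.34 ± 0.065 on the log2 scale, and the call was lost without shCtrl replicate 2 (adjusted p = 0.084). GHRHR, the receptor of growth hormone releasing hormone, stood at 0.375 and 0.299 CPM in shCtrl and 1.04 and 1.904 CPM in shFOXA1, a log2 fold change of 2.11 ± 0.42 (adjusted p = 0.00356). IFI6, an interferon-induced protein of mitochondria, fell by 2.08 ± 0.14, and MESP1, a factor of early mesoderm, fell by 2.25 ± 0.40. RNU6-1, a spliceosomal RNA gene with many near-identical copies, had 58 and 59 counts in shCtrl and 0 and 0 counts in shFOXA1, at least 37.3-fold lower with a floor of 3 counts over the group.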
